A study of Mus musculus with 3 samples.

Results

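The genes described here are the matrix metalloproteinases (Mmp), the ADAMTS proteases and their enzymatically inactive ADAMTS-like relatives (Adamts, Adamtsl), and the tissue inhibitors of metalloproteinases (Timp) of the mouse. They were taken by their symbols, a rule chosen with earlier results of these data known. Of the 20546 genes with a named probe, 49 belonged to them: 22 Mmp, 19 Adamts, 4 Adamtsl and 4 Timp genes. Adamtsl5 and Mmp27 had no probe named here and were not analysed here. RNA from female mice was measured on 1 single-colour Agilent array per group. The first group was spleens given SiO2 (silica particles) plus 3TF-3C, a treatment not spelled out in the labels, collected on day 82 (SiO2-3TF-3C spleen), the second was normal mouse liver, named as a positive control (liver), and the third was spleens given SiO2 and collected on day 82 (SiO2 spleen). Both spleen groups thus carry the SiO2 treatment, no untreated spleen is compared here, and the sources used here give neither ages nor strains. The series design describes pools of 5 samples per group, and whether this covers the liver is not stated. The design names the SiO2 spleen as the control of the other 2 groups.

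Matrix metalloproteinases and ADAMTS proteases are zinc enzymes that are made with an inhibitory prodomain and, once activated, cut collagens, proteoglycans, other matrix proteins and cell surface proteins. TIMPs are small secreted proteins that bind the active site of these enzymes and block it. In spleen and liver such enzymes come from neutrophils, macrophages, fibroblasts, hepatic stellate cells and endothelial cells, and they take part in the remodelling of scar tissue. An mRNA level does not give the activity of an enzyme.

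Every level below is a scaled log2 intensity, the log2 of the scanner's processed signal minus the 75th percentile of its array, so that 0 is that percentile and 1 unit is a 2-fold step. Levels of the same gene are compared between arrays, and levels of different genes are not, since they come from different probes. A value after ± is the technical error of a log2 difference from the scanner software. It leaves out the spread between animals. With 1 array per group there is no replicate, no test and no p-value, and differences of at least 2-fold were counted by size alone. A gene was called measured where the scanner software's test put its probe well above background, and where 1 side of a comparison was not, the difference is a bound; such a probe is called dim below.

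The 3 arrays were alike in quality: between 77.2% and 81.3% of the 43020 spots were well above background and 0 spots were saturated. The labelled tissues were set against marker genes. Hepatocyte markers were well above background for 7 of 7 genes with a probe in the SiO2-3TF-3C spleen, 7 of 7 in liver and 5 of 7 in the SiO2 spleen, with a median difference of 8.37 between the SiO2-3TF-3C and SiO2 spleens. The liver array had all 8 lymphocyte markers well above background too, with a median difference of -0.90 between liver and the SiO2 spleen, and Tlx1 and Nkx2-5, regulators of spleen development picked after their values were seen, were well above background there as well (differences of -1.66 and -1.22). The 8 lymphocyte differences ran from -1.79 to -0.18. Transcripts typical of spleen on the array labelled liver go in part against its label. Whether its RNA included spleen RNA was not tested, and every difference from liver below carries that limit. The comparison of the SiO2-3TF-3C spleen with the SiO2 spleen does not use the liver array.

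Of the 49 genes, 37 were well above background on all 3 arrays. The 8 that were well above background on no array were Mmp1a, Mmp1b, Mmp16, Mmp20, Mmp21, Adamts3, Adamts19 and Adamts20, so no difference is given for them. Adamts6, Adamtsl3 and Mmp28 were well above background in both spleens and not in liver, whereas the brighter probe of Adamts16 was well above background in liver alone. The levels of all 49 genes on the 3 arrays are plotted by role.

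**Figure D1:**
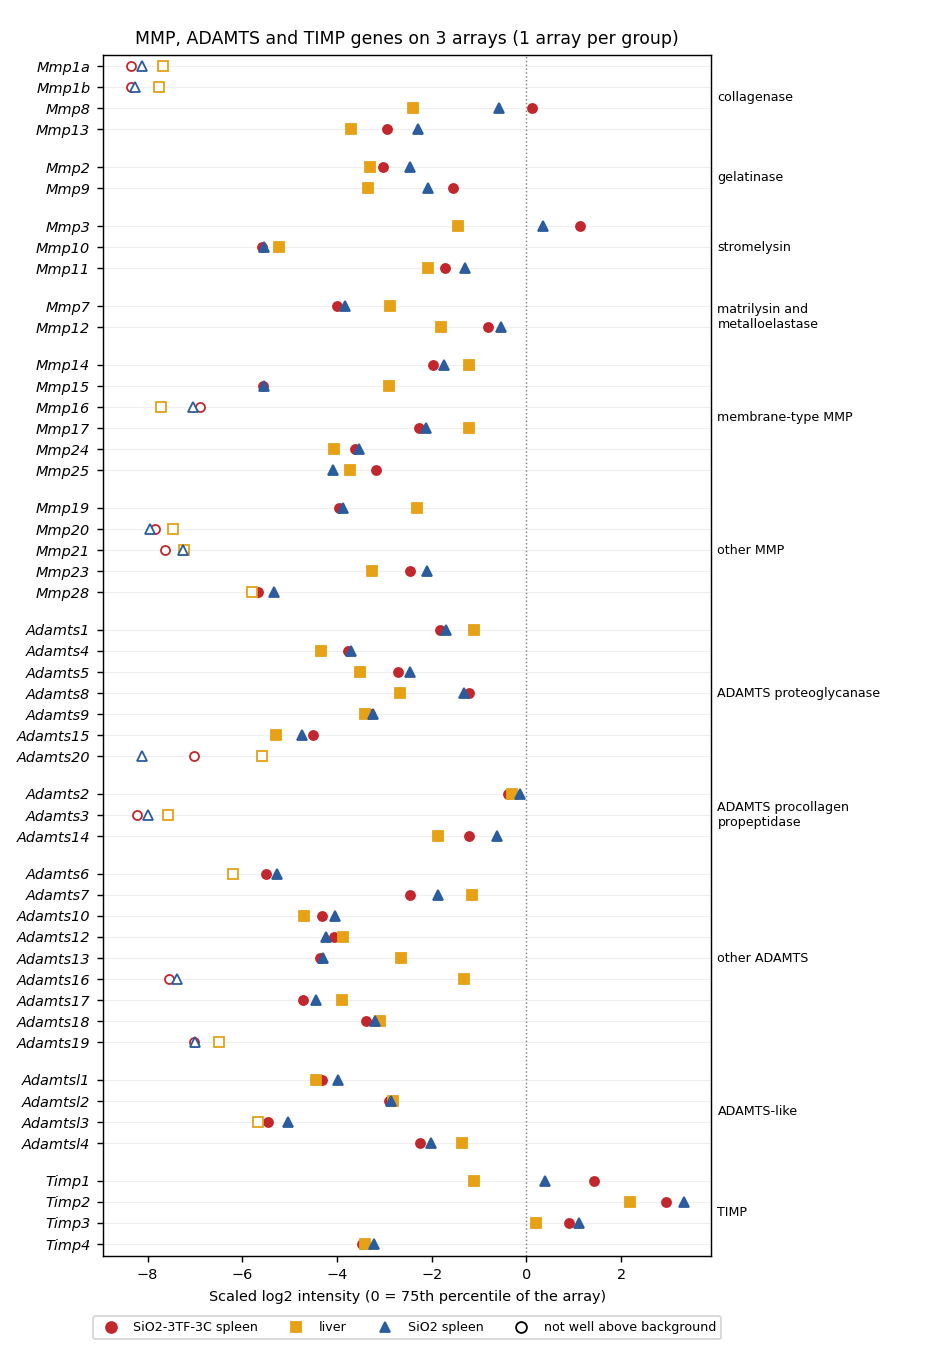
Scaled log2 intensity (x axis, 0 is the 75th percentile of the array) of the 49 genes, grouped by role, on the arrays of the SiO2-3TF-3C spleen (circles), liver (squares) and the SiO2 spleen (triangles), with 1 array per group and open symbols for probes not well above background. For most genes the 2 spleen symbols lie close together, whereas Timp1, Mmp3, Mmp8 and Mmp9 have the SiO2-3TF-3C spleen at the right and liver at the left, and Mmp15, Mmp19, Adamts13 and Adamts16 have liver far to the right of both spleens.

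The SiO2-3TF-3C spleen was first compared with the SiO2 spleen, which asks what 3TF-3C added to SiO2. By the brighter probe of each gene, only Timp1 was at least 2-fold apart: its SiO2-3TF-3C spleen level was 2.03-fold higher. Mmp25, Mmp3, Mmp8 and Mmp9 followed with differences of 0.91, 0.79, 0.71 and 0.55, below the 2-fold size. The other 35 of the 40 genes with a difference lay between -0.65 and 0.25. The other probe of Mmp12, well above background in both spleens, gave -1.15. Of the 40, 1 was at least 2-fold higher and 0 lower, against 5.24% higher and 1.39% lower of the 17639 genes compared, so neither share stands above the background. The median difference was -0.19 over the 40 genes and -0.15 over all genes.

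Timp1, a secreted inhibitor of most MMPs that many cells make in response to inflammatory signals, had a level of 1.42 in the SiO2-3TF-3C spleen, -1.11 in liver and 0.40 in the SiO2 spleen. The difference between the SiO2-3TF-3C and SiO2 spleens was 1.02 ± 0.20, so the 2-fold line lies within its technical error, and with normexp it was 0.87. Timp1 was thus highest in the SiO2-3TF-3C spleen and lowest in liver, with differences of -1.51 ± 0.20 for liver over the SiO2 spleen and 2.53 ± 0.20, a 5.77-fold difference, for the SiO2-3TF-3C spleen over liver.

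The other 3 TIMPs did not share this order. Timp2, an inhibitor that also takes part in the activation of pro-MMP2 at the cell surface, had levels of 2.94 in the SiO2-3TF-3C spleen, 2.19 in liver and 3.32 in the SiO2 spleen. Timp3, which binds the matrix and also inhibits ADAM and ADAMTS proteases, had levels of 0.90, 0.21 and 1.1 in the same order of groups. For both, the SiO2 spleen was highest and liver lowest. The differences between the SiO2-3TF-3C and SiO2 spleens were -0.39 ± 0.20 for Timp2 and -0.20 ± 0.20 for Timp3, and with scaling to housekeeping genes they were -0.18 and 0.01, so the sign for Timp3 depends on the scaling. Timp4, a TIMP known mainly from heart and brain, had levels of -3.47 in the SiO2-3TF-3C spleen, -3.41 in liver and -3.21 in the SiO2 spleen, and none of its 3 differences exceeded 0.26 in size.

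Among the collagenases, which cut fibrillar collagen, Mmp8 and Mmp13 had differences of opposite sign between the spleens. Mmp8, the collagenase stored in neutrophil granules, had a level of 0.11 in the SiO2-3TF-3C spleen, -2.39 in liver and -0.59 in the SiO2 spleen. Its difference between the SiO2-3TF-3C and SiO2 spleens was 0.71 ± 0.20. Mmp13, the main interstitial collagenase of rodents, had a level of -2.95 in the SiO2-3TF-3C spleen, -3.70 in liver and -2.30 in the SiO2 spleen. Its difference between the SiO2-3TF-3C and SiO2 spleens was -0.65 ± 0.21, the lowest of the 40 genes by their brighter probes. Mmp1a and Mmp1b, the mouse relatives of human interstitial collagenase, were not well above background on any array.

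The 2 gelatinases, which cut denatured collagen and basement membrane collagen, were also unlike between the spleens. Mmp9, made by neutrophils and macrophages, had a level of -1.55 in the SiO2-3TF-3C spleen, -3.35 in liver and -2.09 in the SiO2 spleen, with a difference of 0.55 ± 0.21 between the SiO2-3TF-3C and SiO2 spleens. Its probe is printed on each array at 10 spots, of which 8, 10 and 10 were used in the SiO2-3TF-3C spleen, liver and the SiO2 spleen. These spots ranged from -1.65 to -1.39 in the SiO2-3TF-3C spleen, from -3.75 to -3.05 in liver and from -2.27 to -1.97 in the SiO2 spleen. The ranges did not overlap, which speaks of spots of the same RNA and not of animals. Mmp2, the gelatinase of fibroblasts and other stromal cells, had levels of -3.02 in the SiO2-3TF-3C spleen, -3.31 in liver and -2.45 in the SiO2 spleen, with a difference of -0.58 ± 0.21 between the SiO2-3TF-3C and SiO2 spleens.

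Mmp3, stromelysin 1, which cuts proteoglycans and fibronectin and activates other pro-MMPs, had a level of 1.14 in the SiO2-3TF-3C spleen, -1.44 in liver and 0.34 in the SiO2 spleen. It differed by 0.79 ± 0.20 between the SiO2-3TF-3C and SiO2 spleens and, like Timp1, Mmp8 and Mmp9, was lowest in liver. The other stromelysins, Mmp10 and Mmp11, differed by -0.04 ± 0.37 and -0.44 ± 0.20 between the SiO2-3TF-3C and SiO2 spleens. Mmp25, a membrane-anchored MMP of leukocytes, had levels of -3.17 in the SiO2-3TF-3C spleen, -3.73 in liver and -4.08 in the SiO2 spleen, so that here the SiO2 spleen was the lowest. Its difference between the SiO2-3TF-3C and SiO2 spleens was 0.91 ± 0.23, and the 2-fold line lies within its technical error.

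Between the SiO2-3TF-3C and SiO2 spleens, neutrophil granule genes had a median difference of the same sign as Mmp8, Mmp9 and Mmp25. The 8 genes of that list were well above background on all 3 arrays, and 2 of 8 had a difference of at least 2-fold upward between the SiO2-3TF-3C and SiO2 spleens, namely Ltf with 1.47 and Lcn2 with 1.27. The median difference of the list was 0.78, and its summed level on the linear scale, in units of the 75th percentile, was 165 in the SiO2-3TF-3C spleen, 76.3 in liver and 138 in the SiO2 spleen. S100a8 and S100a9 of the same list had differences of 0.01 and -0.11. The part of neutrophils in the Mmp8, Mmp9 and Mmp25 values was not tested. In RNA from whole tissue, fewer cells of a type and less RNA per cell cannot be told apart. Macrophage markers had a median difference of -0.12 and fibroblast markers of -0.24 between the SiO2-3TF-3C and SiO2 spleens, with 0 members at least 2-fold apart in either list. Of 5 markers of Kupffer cells, the liver macrophages, 2 were at least 2-fold higher in that comparison, Clec4f with 6.41 and Vsig4 with 4.11. Timd4 of that list had -0.34, and the list median was 0.59. Of 6 endothelial markers 1 was higher, Clec4g with 1.01, while the list median was -0.08 and the lowest value -0.44. Of 4 compared mesothelial markers 2 were higher, Msln with 2.86 and Gpm6a with 1.02, whereas Wt1 had -0.53 and the list median was 0.86. Of 6 skeletal muscle markers 3 were lower, with a list median of -1.13. Over all genes compared between these spleens, 5.24% were at least 2-fold higher and 1.39% lower.

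**Figure D2:**
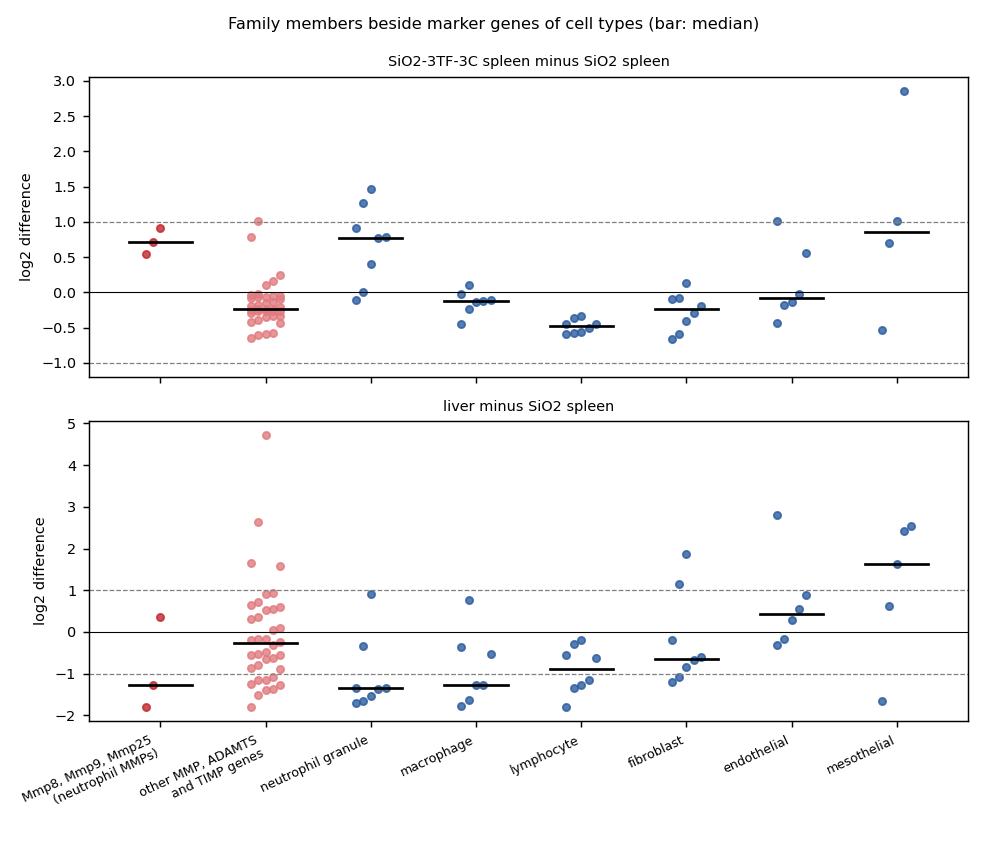
Log2 differences (y axis) of the SiO2-3TF-3C spleen minus the SiO2 spleen (upper panel) and of liver minus the SiO2 spleen (lower panel), with a point per gene, a bar at the median, bounds drawn at their value and dashed lines at 2-fold. Mmp8, Mmp9 and Mmp25, set apart as neutrophil MMPs with their values known, lie between 0.55 and 0.91 in the upper panel, where the median of the neutrophil granule list is 0.78 and that of the lymphocyte list is -0.48. In the lower panel Mmp8 and Mmp9 lie at -1.80 and -1.26, but Mmp25 lies at 0.35, and the median of the neutrophil granule list is -1.35.

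The promoter sequences of 4 genes are shown because 3 of them, Timp1, Mmp3 and Mmp8, were among the highest differences between the spleens and Mmp13, which lies in the same gene run as Mmp3 and Mmp8, was the lowest by the brighter probes. Each runs from 250 bases before to 50 bases after the annotated start, 5′ to 3′ on the gene's strand, from RefSeq on GRCm38.p6, a build other than that of the arrays. Capitals mark matches to 3 motifs: TGANTCA for AP-1, AGGAAG for ETS factors and TATAAA for the TATA box, each searched on both strands.
Timp1, chrX:20869916-20870215, + strand: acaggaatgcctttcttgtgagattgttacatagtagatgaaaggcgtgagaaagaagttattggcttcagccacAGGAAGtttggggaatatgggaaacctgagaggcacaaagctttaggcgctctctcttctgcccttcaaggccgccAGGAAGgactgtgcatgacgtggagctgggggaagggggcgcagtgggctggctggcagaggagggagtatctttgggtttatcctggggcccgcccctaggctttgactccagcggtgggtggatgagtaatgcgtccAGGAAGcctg
Mmp3, chr9:7445572-7445871, + strand: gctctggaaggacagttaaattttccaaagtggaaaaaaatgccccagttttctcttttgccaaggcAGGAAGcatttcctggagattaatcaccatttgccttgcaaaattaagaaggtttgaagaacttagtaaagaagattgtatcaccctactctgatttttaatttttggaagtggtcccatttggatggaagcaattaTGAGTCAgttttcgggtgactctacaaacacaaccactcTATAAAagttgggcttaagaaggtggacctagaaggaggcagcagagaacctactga
Mmp8, chr9:7558179-7558478, + strand: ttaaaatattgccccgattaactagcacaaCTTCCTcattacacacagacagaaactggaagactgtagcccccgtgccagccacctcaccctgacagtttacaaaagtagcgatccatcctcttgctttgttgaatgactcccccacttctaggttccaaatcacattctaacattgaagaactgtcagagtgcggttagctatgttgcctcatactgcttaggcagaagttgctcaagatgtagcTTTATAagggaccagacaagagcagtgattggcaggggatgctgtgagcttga
Mmp13, chr9:7272264-7272563, + strand: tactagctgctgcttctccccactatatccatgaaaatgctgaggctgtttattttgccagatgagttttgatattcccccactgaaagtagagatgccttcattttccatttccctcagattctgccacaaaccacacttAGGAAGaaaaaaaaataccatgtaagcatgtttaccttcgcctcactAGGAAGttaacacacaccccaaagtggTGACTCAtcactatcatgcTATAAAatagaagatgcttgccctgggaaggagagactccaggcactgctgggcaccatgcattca

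The Mmp3 and Mmp13 windows both held an AP-1 match, starting 46 and 35 bases before the start, with at least 1 ETS match and a TATA match. Mmp8 had an ETS match 220 bases and a TATA match 3 bases before the start, with no AP-1 match in its window. The Timp1 window held 3 ETS matches, at 175 and 99 bases before and 41 bases after the start, and no match to the other 2 motifs. Mmp25 had a greater difference between the spleens (0.91) than Mmp3 and Mmp8, and its sequence is not printed. Its window held 2 ETS matches and no AP-1 or TATA match. The 2 printed windows with an AP-1 match belong to Mmp3 (0.79 between the spleens) and Mmp13 (-0.65), both below the 2-fold size. The part of AP-1 in these values was not tested. Windows were found for 34 of the 49 genes. Of these, 8 held an AP-1 match (23.5%, against 7.81% of all 32851 windows), 15 an ETS match (44.1%, against 35.4%) and 12 a TATA match (35.3%, against 13.6%). All 8 genes with an AP-1 match (Mmp1a, Mmp1b, Mmp3, Mmp7, Mmp10, Mmp12, Mmp13 and Mmp20) lie in 1 gene run on chromosome 9, described below. No Adamts, Adamtsl or Timp gene with a window held an AP-1 match. Only exact matches to TGANTCA were counted. A stretch that differs from it by 1 base, such as tgagtaa in the Timp1 window, is not among them. The member shares count genes with a match in any of their windows, and the background counts windows. Mmp7, Mmp12 and Mmp23 had more than 1 window, so the units are not alike. A match is a description of letters and not evidence of binding.

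Mmp3, Mmp8 and Mmp13 belong to a run of 10 Mmp genes on chromosome 9 with 0 other protein-coding genes between them in RefSeq, in the order Mmp13, Mmp12, Mmp1b, Mmp3, Mmp1a, Mmp10, Mmp8, Mmp27, Mmp20 and Mmp7. Of the 9 with a probe, 6 were well above background on all 3 arrays and 3 on none. The 6 measured genes of the run did not all share a sign. Between the SiO2-3TF-3C and SiO2 spleens, Mmp13 and Mmp12 differed by -0.65 and -0.29, Mmp3 by 0.79, Mmp10 by -0.04, Mmp8 by 0.71 and Mmp7 by -0.18. The other probe of Mmp12 gave -1.15.

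The second comparison set liver against the SiO2 spleen. Liver had higher Mmp15, Mmp19, Adamts13 and Adamts16 and lower Timp1, Timp2, Mmp3, Mmp8, Mmp9, Mmp12, Mmp13, Mmp23, Adamts5, Adamts8 and Adamts14, each at least 2-fold by the brighter probe. Of the 41 genes with a difference, 4 were higher (9.76%) and 11 lower (26.8%), against 15.4% higher and 17.0% lower of the 17358 genes compared. The median difference was -0.30, against -0.14 over all genes. Of the 37 measured on both arrays 0 were 4-fold lower in liver. Adamts6, Adamtsl3 and Mmp28 were dim in liver, so the size of their difference is unknown, and they are not among the 11. Mmp15 and Adamts16 were at least 4-fold higher. With normexp background correction, which shrinks the differences of dim probes, 2 members were higher (Mmp15, Adamts16) and 4 lower (Mmp3, Mmp8, Timp1, Timp2).

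The third comparison set the SiO2-3TF-3C spleen against liver, the tissue named as positive control. Mmp3, Mmp8, Mmp9, Timp1 and Adamts8 were at least 2-fold higher and Mmp7, Mmp15, Mmp17, Mmp19, Adamts7, Adamts13 and Adamts16 at least 2-fold lower in the SiO2-3TF-3C spleen. These are 5 (12.5%) and 7 (17.5%) of 40 genes, against 10.7% higher and 15.9% lower of the 17212 genes compared, shares close to the background. With scaling to housekeeping genes the split was 8 higher and 5 lower, against 15.8% higher and 12.6% lower of all genes. With normexp it was 3 higher and 2 lower, against 5.14% higher and 11.1% lower of all genes. The 3 comparisons are built from the same 3 arrays, so they share their values and do not support each other.

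**Figure D3:**
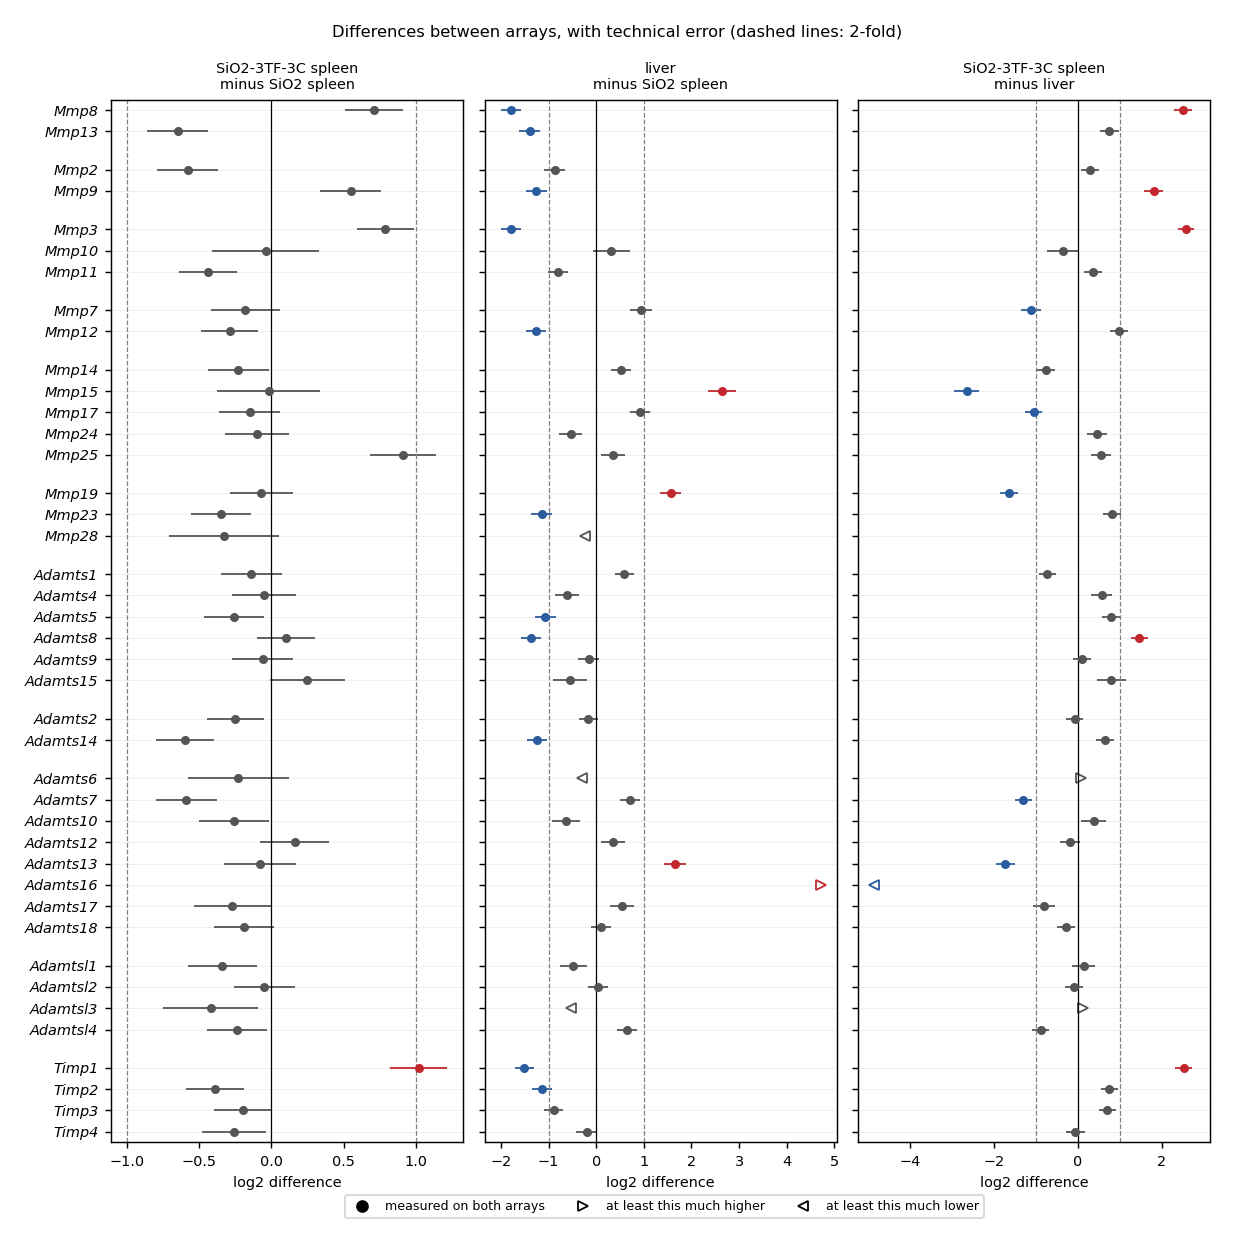
Log2 differences (x axis) of the genes with a value in at least 1 comparison, with technical error bars, for the SiO2-3TF-3C spleen minus the SiO2 spleen, liver minus the SiO2 spleen and the SiO2-3TF-3C spleen minus liver (the x axes differ). Coloured points are at least 2-fold apart, dashed lines mark 2-fold and open triangles are bounds; 1 gene is past the 2-fold line in the first panel, 15 in the second and 12 in the third.

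The genes higher in liver were close to equal in the 2 spleens. Mmp15, a membrane-type MMP that can activate pro-MMP2, had a level of -5.56 in the SiO2-3TF-3C spleen, -2.90 in liver and -5.54 in the SiO2 spleen. Its liver level was 6.23-fold higher than that of the SiO2 spleen (2.64 ± 0.30) and its SiO2-3TF-3C spleen level 6.30-fold lower than that of liver, and the 2 spleens differed by -0.02 ± 0.36. Mmp19, an MMP of many tissues that cuts basement membrane proteins, had levels of -3.95 in the SiO2-3TF-3C spleen, -2.31 in liver and -3.88 in the SiO2 spleen. It differed by 1.57 ± 0.22 between liver and the SiO2 spleen and by -0.07 ± 0.22 between the spleens. With normexp, liver over the SiO2 spleen was 1.17 for Mmp15 and 0.97 for Mmp19, and the SiO2-3TF-3C spleen over liver -1.14 and -0.94.

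Adamts13, the plasma protease that cuts von Willebrand factor and is made mainly by hepatic stellate cells, had levels of -4.36 in the SiO2-3TF-3C spleen, -2.64 in liver and -4.29 in the SiO2 spleen. Liver over the SiO2 spleen was 1.65 ± 0.23 and the SiO2-3TF-3C over the SiO2 spleen -0.08 ± 0.25, and with normexp liver over the SiO2 spleen gave 0.93. Its other probe had a level of -5.53 in liver and was dim in both spleens. Its raw value of 1.56 for liver over the SiO2 spleen rests on the dim SiO2 spleen signal of -7.09. The rule for bounds would set that side to -6.04, so the bound is smaller than 1.56 and leaves the size of the difference unknown. Vwf, the substrate gene, differed by 0.11 between the SiO2-3TF-3C and SiO2 spleens and by -0.97 between liver and the SiO2 spleen.

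Hepatocyte and stellate cell markers are given beside these 3 genes. In liver over the SiO2 spleen, 7 of 7 hepatocyte markers passed 2-fold upward (median 10.79), and 6 of 8 stellate cell markers did so (median 1.59). Of all compared genes 15.4% did so. In the SiO2-3TF-3C over the SiO2 spleen, 7 of 7 hepatocyte markers were at least 2-fold higher and 1 of 8 stellate cell markers, Colec11, with 2.79. The share of all compared genes there was 5.24%. The summed level of the stellate cell list was 2.08 in the SiO2-3TF-3C spleen, 7.54 in liver and 1.60 in the SiO2 spleen, and that of the hepatocyte list was 161, 387 and 0.281 in the same order. The part of either cell type in the Mmp15, Mmp19 and Adamts13 values was not tested.

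Mmp7, matrilysin, an MMP of epithelia, had levels of -4.01 in the SiO2-3TF-3C spleen, -2.89 in liver and -3.83 in the SiO2 spleen. Mmp17, a membrane-type MMP anchored through a lipid, had levels of -2.28, -1.22 and -2.13, and Adamts7, which cuts cartilage oligomeric matrix protein, had levels of -2.45, -1.15 and -1.86 in the same order of groups. For all 3, liver was highest and the SiO2-3TF-3C spleen lowest, with differences of -1.12 ± 0.23, -1.06 ± 0.21 and -1.30 ± 0.21 between the SiO2-3TF-3C spleen and liver. Mmp14, the main activator of pro-MMP2 at the cell surface, was below this size, with levels of -1.98 in the SiO2-3TF-3C spleen, -1.22 in liver and -1.75 in the SiO2 spleen and a difference of -0.76 ± 0.21 between the SiO2-3TF-3C spleen and liver.

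Among the genes lower in liver, Mmp3 and Mmp8 had the lowest values, -1.79 ± 0.21 and -1.80 ± 0.21 in liver over the SiO2 spleen and 2.58 ± 0.20 and 2.51 ± 0.21 in the SiO2-3TF-3C spleen over liver. Mmp9 had -1.26 ± 0.22 and 1.81 ± 0.22 in these comparisons, and -0.50 and 0.91 with normexp. In liver over the SiO2 spleen, 6 of 8 neutrophil granule markers were at least 2-fold lower, with a median of -1.35, against 17.0% of all compared genes. In the SiO2-3TF-3C spleen over liver 6 of 8 were higher, with a median of 2.16, against 10.7% of all compared genes. Lcn2 of that list went the other way in liver over the SiO2 spleen, with 0.92, and had 0.35 in the SiO2-3TF-3C spleen over liver. Mmp25 had 0.35 ± 0.25 and 0.56 ± 0.24 in these comparisons, so in liver over the SiO2 spleen its sign was opposite to the list median.

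Mmp12, the metalloelastase of macrophages, had levels of -0.82 in the SiO2-3TF-3C spleen, -1.80 in liver and -0.53 in the SiO2 spleen, which is -1.27 ± 0.21 in liver over the SiO2 spleen. Between the SiO2-3TF-3C and SiO2 spleens its brighter probe gave -0.29 ± 0.20 and its other probe, well above background in both, gave -1.15. Of 7 macrophage markers with a probe, 4 were at least 2-fold lower in liver over the SiO2 spleen, against 17.0% of all compared genes. Their median there was -1.26. Their summed levels were 84.6 in the SiO2-3TF-3C spleen, 55.6 in liver and 94.0 in the SiO2 spleen. The part of macrophages in the Mmp12 values was not tested.

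Mmp13 and Mmp23, an MMP with an unusual cysteine-rich C-terminal part, were lower in liver than in SiO2 spleen, with differences of -1.40 ± 0.22 and -1.15 ± 0.22 on the log2 scale, and with normexp the values were -0.52 and -0.41. Mmp23 had levels of -2.45 in the SiO2-3TF-3C spleen, -3.26 in liver and -2.11 in the SiO2 spleen. Timp2 was lower in liver with -1.14 ± 0.20 by its brighter probe and -1.22 by its other probe. Of 8 fibroblast markers in this comparison, 2 were at least 2-fold higher in liver and 2 at least 2-fold lower, with a median of -0.65. Of all compared genes 15.4% were higher and 17.0% lower, so counts of this size lie near the background.

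The ADAMTS proteases that cut large proteoglycans such as aggrecan and versican lay close together in the spleens. Of the 7 in this group 6 were measured, with differences from -0.26 to 0.25 between the SiO2-3TF-3C and SiO2 spleens. Adamts1 had levels of -1.83 in the SiO2-3TF-3C spleen, -1.1 in liver and -1.69 in the SiO2 spleen. Adamts5, the main aggrecanase of mouse cartilage, had levels of -2.72, -3.52 and -2.45 in the same order, and its difference of -1.07 ± 0.22 for liver over the SiO2 spleen was not matched by its other probe, which gave -0.21, and was -0.34 with normexp.

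Adamts8 had probes that went opposite ways. The brighter probe had levels of -1.21 in the SiO2-3TF-3C spleen, -2.68 in liver and -1.31 in the SiO2 spleen, which is -1.37 ± 0.21 for liver over the SiO2 spleen. The other probe, also well above background on all 3 arrays, gave 1.70 for the same comparison and -1.61 for the SiO2-3TF-3C spleen over liver. Whether Adamts8 mRNA is lower or higher in liver is therefore not settled by these arrays. Both probes gave close to 0.1 between the SiO2-3TF-3C and SiO2 spleens (0.10 and 0.09).

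Adamts2 and Adamts14 remove the amino-terminal propeptide of fibrillar procollagens. Adamts2 had levels of -0.38 in the SiO2-3TF-3C spleen, -0.31 in liver and -0.14 in the SiO2 spleen, with 0 of its differences at least 2-fold. Adamts14 had levels of -1.22, -1.87 and -0.62 in the same order and differed by -0.60 ± 0.20 between the SiO2-3TF-3C and SiO2 spleens. In liver over the SiO2 spleen its brighter probe gave -1.24 ± 0.21 and its other probe 0.26. Col1a1 and Col3a1, fibrillar collagen genes whose products these enzymes process, differed by -0.08 and -0.40 between the SiO2-3TF-3C and SiO2 spleens.

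Adamts16 had the widest gap of all members. Its brighter probe had a level of -1.32 in liver and was dim in the SiO2-3TF-3C spleen (-7.54) and the SiO2 spleen (-7.39). The liver level was thus at least 26.4-fold higher than that of the SiO2 spleen, and that of the SiO2-3TF-3C spleen at least 29.3-fold lower than that of liver. These bounds set the dim side to the lowest signal well above background on its array, -6.19 in the SiO2-3TF-3C spleen and -6.04 in the SiO2 spleen. Its other probe was well above background in both spleens (-5.58 in the SiO2-3TF-3C and -5.20 in the SiO2 spleen) and dim in liver (-5.53), so the 2 probes disagree on where the gene is measured. The size also depends on the processing: in liver over the SiO2 spleen the value was 2.07 with normexp and 2.87 with the mean over both probes, against 4.72 for the bound, and in the SiO2-3TF-3C spleen over liver -2.04 and -3.13, against -4.87.

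By their brighter probes, Mmp24, Adamts4, Adamts9, Adamts10, Adamts12, Adamts15, Adamts17 and Adamts18 were below 2-fold in all 3 comparisons. Adamts6 and Mmp28 differed by -0.23 ± 0.35 and -0.33 ± 0.38 between the SiO2-3TF-3C and SiO2 spleens. Both were dim in liver, so for liver over the SiO2 spleen they have only bounds, a difference of -0.30 or below for Adamts6 and of -0.24 or below for Mmp28. The 7 compared genes of the remaining ADAMTS group, to which Adamts7 and Adamts13 belong, lay between -0.59 and 0.16 in the SiO2-3TF-3C over the SiO2 spleen.

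The 4 ADAMTS-like genes, which lack the protease domain, were below 2-fold between the SiO2-3TF-3C and SiO2 spleens, and Adamtsl1, Adamtsl2 and Adamtsl4 were so in the comparisons with liver too. Adamtsl4, which binds fibrillin microfibrils, had levels of -2.25 in the SiO2-3TF-3C spleen, -1.36 in liver and -2.01 in the SiO2 spleen. Adamtsl2 had levels of -2.91, -2.81 and -2.86 and Adamtsl1 of -4.31, -4.44 and -3.97 in the same order. Adamtsl3 was dim in liver, where it was lower than in the SiO2 spleen by at least 0.53 on the log2 scale (a difference of -0.53 or below), a bound that leaves the size of the difference unknown.

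**Figure D4:**
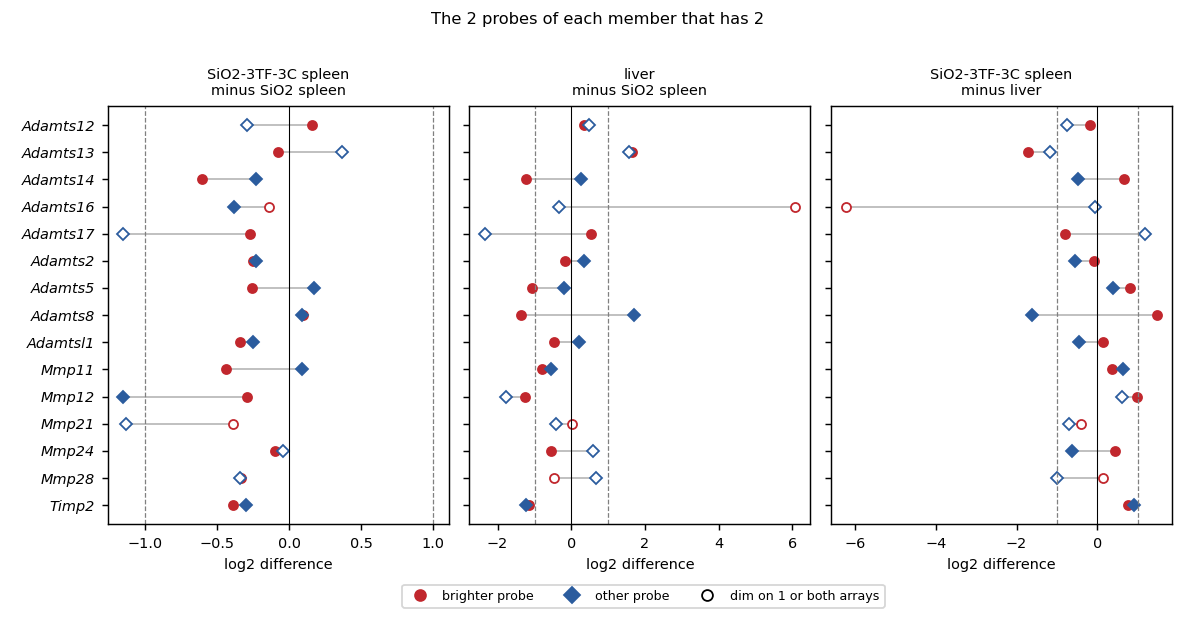
Log2 differences (x axis) of the 15 genes with 2 probes, for the SiO2-3TF-3C spleen minus the SiO2 spleen, liver minus the SiO2 spleen and the SiO2-3TF-3C spleen minus liver, with circles for the brighter probe, diamonds for the other and open symbols for a probe dim on 1 or both arrays. The probes of Timp2 lie close together in all 3 panels, whereas those of Adamts8 and Adamts16 lie far apart in the panels with liver.

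The genes that activate, inhibit or supply these proteases were taken from lists chosen with earlier results of these data known. In the plasminogen system, whose active enzyme plasmin activates several pro-MMPs, 5 of 13 measured genes were at least 2-fold higher and 0 lower in the SiO2-3TF-3C than in the SiO2 spleen. Over all compared genes these shares were 5.24% and 1.39%. Plg, the plasminogen gene, had levels of 2.97 in the SiO2-3TF-3C spleen, 5.62 in liver and -5.68 in the SiO2 spleen, a difference of 8.65 ± 0.31 between the SiO2-3TF-3C and SiO2 spleens. F12, Hgfac, Cpb2 and Klkb1, the other 4, are like Plg known as liver-made plasma protein genes, and differed by 6.16, 3.42, 2.82 and 2.62. The plasminogen activators Plau and Plat and the receptor gene Plaur differed by -0.03, 0.65 and -0.16. The hepatocyte marker values above move with the 5 higher genes, and the part of hepatocytes in them was not tested.

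Of the 14 compared genes in the list of other inhibitors and cofactors, 4 were at least 2-fold higher and 0 lower in the SiO2-3TF-3C than in the SiO2 spleen. These counts stand beside 5.24% higher and 1.39% lower of all compared genes. The plasma protease inhibitors Mug1 and Pzp differed by 8.97 ± 0.34 and 7.58 ± 0.21. Tfpi2, a serine protease inhibitor, was at least 6.14-fold higher. Lcn2, whose product forms a complex with MMP9 in human neutrophils, differed by 1.27 ± 0.20. Reck, a membrane inhibitor of MMPs, differed by -0.22 and Bsg, an inducer of MMPs on the cell surface, by 0.84. In the SiO2-3TF-3C spleen over liver, Tfpi2, Mug1 and Bsg had differences of -3.14, -2.68 and -1.43.

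The remaining lists held few genes past 2-fold between the SiO2-3TF-3C and SiO2 spleens, where 5.24% of all compared genes were higher and 1.39% lower. In lists of this size, counts of 0 or 1 lie near those shares. Of 13 ADAM proteases 0 were higher and 0 lower, with Adam22 at -0.80, Adam19 at -0.59 and Adam8 at -0.53. In liver over the SiO2 spleen 5 of 13 were lower, against 17.0% of all compared genes. Among them were Adam8 at -1.71, Adam22 at -1.69 and Adamdec1 and Adam19 both at -1.49. Of 15 compared astacin, meprin, FAP and cathepsin genes 1 was higher in the SiO2-3TF-3C than in the SiO2 spleen, Ctsg, a serine protease of neutrophil granules, with 1.31 ± 0.20, and Elane, another, had 0.91. Bmp1, Furin and Ctsl of this list were higher in liver, with differences from the SiO2 spleen of 2.45, 2.12 and 1.65. Bmp1 removes the carboxy-terminal propeptide of procollagens and Furin activates membrane-type MMPs and ADAMTS proteases.

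Of 23 compared matrix substrate genes 0 were higher and 0 lower between the SiO2-3TF-3C and SiO2 spleens, with a median of -0.24. Of all compared genes 5.24% were higher and 1.39% lower, so counts of 0 in lists of this size lie near the background. Fn1, fibronectin, had 0.60 and Fbn2, a fibrillin, -0.60. In liver over the SiO2 spleen Fn1 and Dcn, decorin, were higher by 1.90 and 1.88, and in the SiO2-3TF-3C spleen over liver they had -1.30 and -1.75. Of 22 inducers and regulators of MMP genes 0 were higher and 0 lower between the SiO2-3TF-3C and SiO2 spleens, again near the background. Il1b, a cytokine that induces Mmp3 and Timp1 in many cells, had the value farthest from 0, with levels of 2.13 in the SiO2-3TF-3C spleen, 1.85 in liver and 3.04 in the SiO2 spleen and a difference of -0.91 ± 0.20 between the SiO2-3TF-3C and SiO2 spleens. Ets1, a factor that binds the ETS motif, and the AP-1 subunit genes Fos and Jun differed by -0.28, -0.39 and -0.37.

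**Figure D5:**
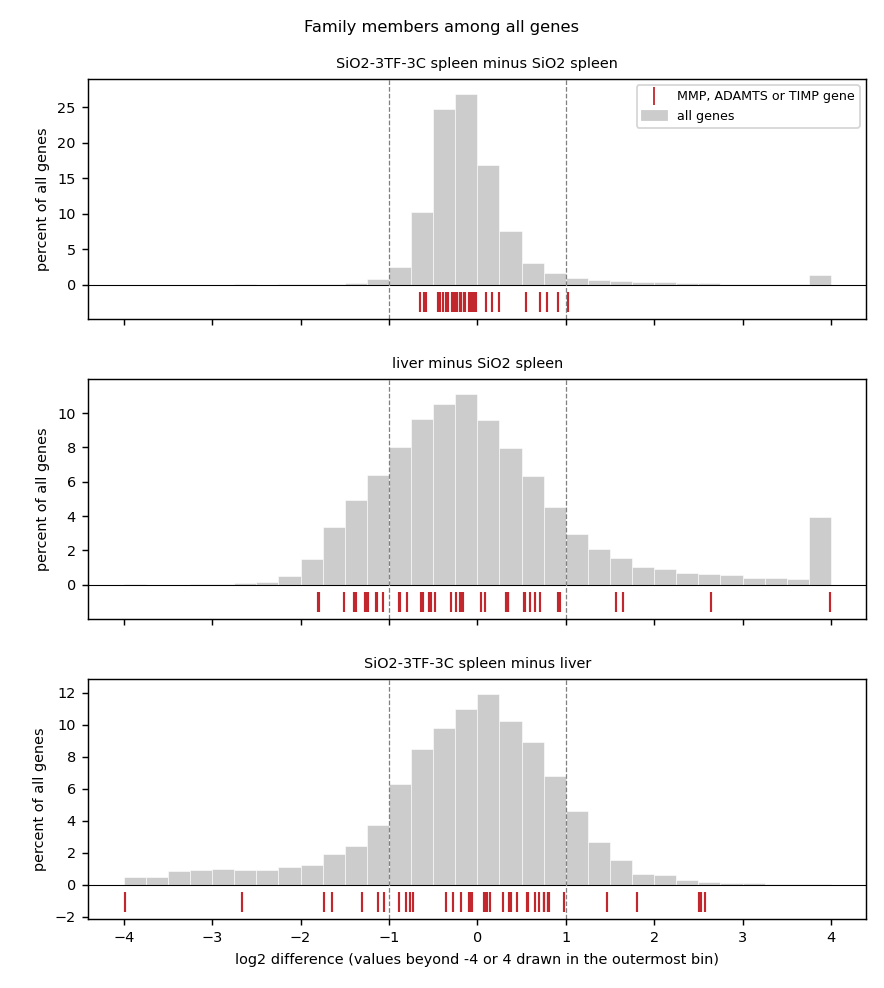
Share of all compared genes (y axis, percent) in bins of log2 difference (x axis), with a red tick below for each MMP, ADAMTS or TIMP gene with a difference, in the 3 comparisons; values beyond the axis are drawn in the outermost bin. In the upper panel, SiO2-3TF-3C spleen minus SiO2 spleen, the 40 ticks run from -0.65 to 1.02, and in the middle panel, liver minus SiO2 spleen, more of the 41 ticks lie left of -1 (11) than right of 1 (4).

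Values of the authors' deposited table, which the authors normalized themselves, were set beside these for the genes it lists. In the authors' deposited table Mmp3 was 10.12 log2 in the SiO2-3TF-3C spleen, 7.47 in liver and 9.26 in the SiO2 spleen. In the authors' deposited table Mmp8 was 9.03 log2, Mmp9 7.37 and Mmp25 5.78 in the SiO2-3TF-3C spleen, against 6.51, 5.51 and 5.13 in liver and 8.35, 6.85 and 4.85 in the SiO2 spleen. The order of the 3 groups for these 4 genes was the same as from the scanner signals. The Timp1 probe used here is not among the probes of the table.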

How the data were processed

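RNA of 3 groups was hybridised to 1 Cy3 array each. Per the labels, RNA came from a purification kit for blood, globin messages were depleted and cRNA was made by linear amplification. Each deposited scanner file holds linear intensity values after background subtraction, not scaled between arrays; per the file headers they came from Feature Extraction 11.0.1.1 on design 026655 (mm9), while Agilent Feature Extraction 9.1 is the tool in the submitters' processing notes. The authors' deposited series table holds log2 values of 26049 probes (column medians 5.91, maxima 16.58; r with the log2 intensity of the own array from 0.993 to 0.996), made by a normalization that the sources used here do not give. The 3 arrays lay on the same slide, so slide and group are not confounded, but each group has its own slide position.

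Processed signals were averaged over spots of a probe after control and outlier-flagged spots were left out (283, 469 and 182 spots on the SiO2-3TF-3C spleen, liver and SiO2 spleen arrays), taken as log2 and lowered by the array's 75th percentile (an intensity of 515, 390 and 569; median negative control 1.56, 1.85 and 1.94). Of 39112 probes, 27038 received a symbol through their RefSeq accession, from a table on GRCm38.p6 used for names and gene order alone. The brightest probe stood for a gene; 15 of the 49 genes had 2 probes. A side not well above background took its own signal or, if greater, the lowest signal called well above background on that array.

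The members, lists and the naming rule were chosen with earlier results of these data known. The rule names the TIMPs, every member at least 2-fold apart in any comparison and the 3 members per subfamily with the highest mean level, and of each list the 3 largest differences per comparison and those 2-fold apart between the spleens. Other members and genes named outside it, such as Mmp2, Mmp14, Mmp25 and Vwf, were chosen for their role or after their values were seen. Depth is not defined for arrays, and the number of arrays, 1 per group, limits the precision. Calling was tested on simulated data for genes measured on both sides of a comparison, and the bounds were not tested. Alternatives were normexp background correction (offset 50, limma 3.58.1 in R 4.3.3), scaling to the array median or to 9 housekeeping genes, quantile normalization, the deposited table, the mean over all probes, and 2 other filters. Normexp used the median signal because the files have no mean signal column. Sequences are from RefSeq.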

Additional observations from a re-analysis of the deposited data

How the results depend on the processing

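In the comparison of the SiO2-3TF-3C with the SiO2 spleen, the number of members at least 2-fold higher, 1 as reported, was 0 with normexp (Timp1 at 0.87), 3 with housekeeping scaling (Timp1 at 1.23, Mmp25 at 1.12 and Mmp3 at 1.0), 2 with no filter (adding Adamts20, dim in all groups) and 0 in the authors' deposited table, which lists 26 of the members compared and not the Timp1 probe. In liver over the SiO2 spleen, normexp gave 2 higher (Mmp15, Adamts16) and 4 lower (Mmp3, Mmp8, Timp1, Timp2) with a median of 0.15, against 4, 11 and -0.30 as reported, and the authors' deposited table gave 6 lower. In the SiO2-3TF-3C spleen over liver, normexp gave 3 higher and 2 lower with a median of -0.13, against 5, 7 and 0.12 as reported, and housekeeping scaling gave 8 higher. The share of higher among the called members there was 60.0% with normexp and 61.5% with housekeeping scaling, against 41.7%. Of all genes compared there, 5.14% were higher and 11.1% lower with normexp. With housekeeping scaling these were 15.8% and 12.6%, against 10.7% and 15.9% as reported, so the balance over all genes moved too. In liver over the SiO2 spleen the share of higher among the called members was 40.0% in the authors' deposited table, against 26.7%. Averaging both probes turned Adamts8 round, to 0.17 in liver over the SiO2 spleen and -0.07 in the SiO2-3TF-3C spleen over liver, as its probes oppose each other. Under normexp the offset shrinks differences of dim probes; the cause of the other changes was not tested. The median over all genes also moved, to 0.06 with housekeeping scaling against -0.15 between the spleens, and relative to it the members' median was -0.04 in both settings. The other 60 counts and medians stayed within 1.5 times or kept close to the value reported. Values of single members were followed for members 2-fold apart in a comparison, the TIMPs, Mmp3, Mmp8, Mmp9 and Mmp25. Of these values 44 moved by more than their technical error with the same call direction or none, 2 (both of Adamts8) changed sign and 280 did neither. Over its alternatives the difference between the SiO2-3TF-3C and SiO2 spleens ranged from 0.87 to 1.23 for Timp1, 0.79 to 1.0 for Mmp3, 0.60 to 0.92 for Mmp8 and 0.51 to 1.12 for Mmp25. No paired analysis was possible because each group has 1 array. Members well above background on no array (8) have only an upper limit on their level.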
